A study of Mus musculus with 6 samples.

Results

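The 10 genes described here were 7 matrix metalloproteinases (*Mmp2*, *Mmp3*, *Mmp11*, *Mmp12*, *Mmp13*, *Mmp14* and *Mmp19*) and 3 tissue inhibitors of metalloproteinases (*Timp1*, *Timp2* and *Timp3*), found by exact symbol among the 21358 entries of an RNA-seq table of B16-F10 mouse melanoma. All 10 were listed and all 10 passed the minimum level for testing, a mean of at least 0.1 FPKM (fragments mapped to a gene, divided by its exon length and by the depth of the library). Whole tumors from 3 mice given ACT + IL-2 and 3 mice given ACT + NKTR-214 were compared at day 12, where ACT is adoptive cell transfer. The recipients were female C57BL/6 mice of 6 to 8 weeks, implanted under the skin with B16-F10 cells, a melanoma line of the same strain, 7 days before the transfer, and given 500 cGy of total body irradiation 1 day before it. Both groups then received 2000000 pmel-1 splenocytes, cells of Thy1.1+ T cell receptor transgenic mice whose CD8 T cells recognise the melanoma antigen gp100, after culture with gp100 peptide and IL-2. ACT + IL-2 mice were dosed intraperitoneally with 0.4 mg/kg IL-2 on 3 days of each 9-day cycle. ACT + NKTR-214 mice were dosed intravenously with 0.8 mg/kg NKTR-214, an IL-2 carrying releasable polyethylene glycol chains, on 1 day of each cycle. Agent, dose, route and schedule therefore differed together and cannot be told apart, and no untreated or vehicle-treated tumor was analysed here.

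Matrix metalloproteinases are zinc-dependent enzymes that cut collagens, elastin, proteoglycans and many cell-surface and secreted proteins. Most are made as inactive precursors that other proteinases switch on outside the cell. The tissue inhibitors of metalloproteinases bind the active site of these enzymes, and in tumors both are made by fibroblasts, infiltrating myeloid cells and the tumor cells themselves. RNA levels do not report activation or inhibition of the enzymes.

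Of the 10 genes, 8 were higher in ACT + NKTR-214 tumors, none was lower and 2 did not pass the test (limma on log2(FPKM + 1), Benjamini-Hochberg adjusted p under 0.05 over all 14172 genes tested). *Mmp12*, *Mmp13*, *Mmp19*, *Timp1*, *Mmp3*, *Mmp2*, *Mmp11* and *Timp3* were called, in order of log2 fold change from 2.76 to 0.63, while *Mmp14* and *Timp2* were not. For comparison, 20.7% of all tested genes were called higher and 8.28% lower. The 3 tumors of each group did not overlap for 9 of the 10 genes, in each case with ACT + NKTR-214 higher, as they did not for 27.1% of all tested genes in that direction and 42.4% in either. The median log2 fold change was 1.33 over the 10 genes and 0.05 over all tested genes. The 10 genes were chosen with earlier results of these data known, so these comparisons are a description. None of the 10 was lower at an unadjusted p under 0.05 either (0 genes, limma). The balance of all calls depended on the scaling of the libraries: 71.5% of them were higher here, 46.8% after scaling to a common 75th percentile and 37.0% after quantile normalization, which moved the median of all tested genes by -0.15. Relative to that median, the log2 fold changes of the 10 genes ran from 0.14 to 2.72 here, from 0.11 to 2.69 with the 75th percentile and from 0.18 to 2.71 with quantile normalization. With no moderation of the variances across genes, none of the 8 kept its call (adjusted p from 0.0597 to 0.161). In whole tumors, more cells of a type and more RNA per cell cannot be told apart.

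**Figure D1:**
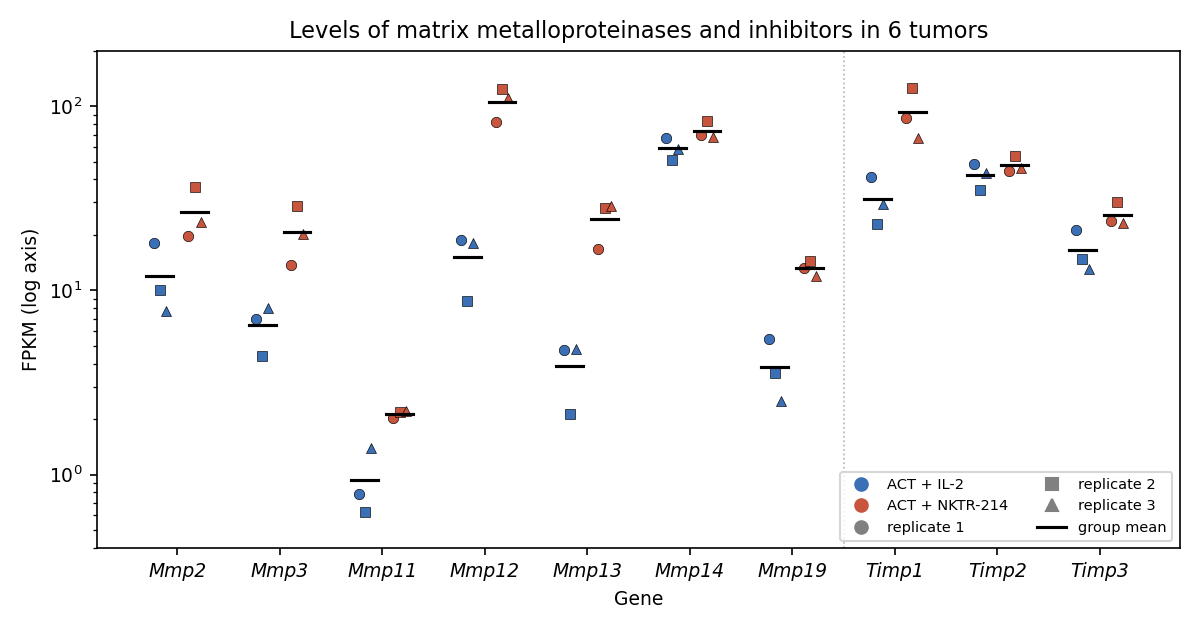
FPKM (log axis) of the 10 genes in each of 6 tumors, blue for ACT + IL-2 and red for ACT + NKTR-214, with marker shapes for the replicates and a bar at each group mean. The groups overlap only for *Timp2*, and the widest gap is that of *Mmp12*, whose tumors lie between 8.79 and 18.7 FPKM with IL-2 and between 81.6 and 124 FPKM with NKTR-214.

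*Mmp12* and *Mmp13* had the largest differences of the 10. *Mmp12* (chr9:7344381-7369499, + strand, build GRCm38), the macrophage elastase, measured 18.7, 8.79 and 18.2 FPKM in ACT + IL-2 tumors 1 to 3, and 81.6, 124 and 111 FPKM in ACT + NKTR-214 tumors 1 to 3. The lowest NKTR-214 tumor lay far above the highest IL-2 tumor. Group means were 15.2 ± 5.57 and 105 ± 21.6 FPKM (SD, n = 3 each), a ratio of 6.93, and the log2 fold change was 2.76 (SE 0.23, 95% interval 2.26 to 3.26, adjusted p = 5.06e-07). *Mmp13* (chr9:7272514-7283331, + strand), collagenase-3, is a main enzyme for cutting fibrillar collagen in rodents. It measured 4.73, 2.12 and 4.80 FPKM with IL-2, and 16.8, 27.9 and 28.6 FPKM with NKTR-214. Again the groups were wide apart, with NKTR-214 tumor 1 below the other two of its group. Its log2 fold change was 2.40 (SE 0.24, 95% interval 1.90 to 2.90, adjusted p = 2.02e-06), from means of 3.88 ± 1.53 and 24.4 ± 6.59 FPKM (SD, n = 3 each).

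The stromelysins differed less. *Mmp3* (chr9:7445822-7455975, + strand), stromelysin-1, cuts many matrix proteins and activates the precursors of other metalloproteinases. Its levels were 7.01, 4.38 and 8.05 FPKM with IL-2 and 13.7, 28.7 and 20.1 FPKM with NKTR-214, so that the groups were apart but the NKTR-214 tumors spread widely. The log2 fold change was 1.52 (SE 0.23, 95% interval 1.03 to 2.02, adjusted p = 0.00013). In the GENCODE vM21 annotation, 8.39% of the 50-base windows of *Mmp3* transcripts recur in *Mmp10* or the pseudogene Gm15244. Sequence alone cannot tell which gene a read from these windows came from. How such reads were counted is not given in the sources used here. *Mmp11* (chr10:75923222-75936496, - strand), stromelysin-3, is unusual in being activated inside the cell by furin and is known from the stroma around tumors. It was the lowest of the 10, at 0.787, 0.630 and 1.40 FPKM with IL-2 and 2.02, 2.19 and 2.23 FPKM with NKTR-214, and the groups did not overlap. These values rest on 33 to 122 reads per tumor, as read from the steps of the FPKM values, and 5.58% of its exon bases overlap *Chchd10* on the opposite strand. *Chchd10* was listed far higher, at 113 to 168 FPKM with IL-2 and 162 to 216 FPKM with NKTR-214, and its part in the *Mmp11* values was not tested. Its log2 fold change of 0.72 (SE 0.15, 95% interval 0.40 to 1.03, adjusted p = 0.00161) lost the call with quantile normalization (0.43, adjusted p = 0.0575). At this low level the value also depended on the pseudocount: the ratio of group means was 2.28, and with 0.1 in place of 1 the log2 fold change was 1.18 (adjusted p = 0.00298), close to that of *Mmp2* under the same setting (1.19).

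*Mmp19* (chr10:128790910-128800824, + strand), a secreted proteinase with substrates in basement membranes, measured 5.41, 3.58 and 2.51 FPKM with IL-2 and 13.2, 14.5 and 12.0 FPKM with NKTR-214. The NKTR-214 tumors were close together, each above every IL-2 tumor. Its log2 fold change was 1.60 (SE 0.19, 95% interval 1.19 to 2.01, adjusted p = 1.5e-05). Its exons overlap those of *Tmem198b* on the opposite strand over 22.3% of their bases, and whether the reads were counted by strand is not given in the sources used here. *Tmem198b* itself was listed at 4.18 to 5.82 FPKM with IL-2 and 6.88 to 9.28 FPKM with NKTR-214.

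*Mmp14* and *Mmp2* act in sequence: *Mmp14*, the membrane-anchored MT1-MMP, cuts fibrillar collagen at the cell surface and activates the precursor of *Mmp2*, gelatinase A, with *Timp2* as the adaptor. *Mmp2* (chr8:92827291-92853420, + strand) measured 18.1, 10.01 and 7.74 FPKM with IL-2 and 19.8, 36.6 and 23.6 FPKM with NKTR-214. The gap between the groups was narrow, between IL-2 tumor 1 and NKTR-214 tumor 1. Its log2 fold change was 1.13 (SE 0.25, 95% interval 0.59 to 1.66, adjusted p = 0.00308), and without IL-2 tumor 2 it was 1.05 and missed the threshold (adjusted p = 0.0776). *Mmp14* (chr14:54431612-54445364, + strand) was abundant in every tumor, at 67.5, 51.1 and 58.2 FPKM with IL-2 and 69.8, 83.3 and 67.8 FPKM with NKTR-214. The groups only just failed to overlap, and the log2 fold change of 0.32 (SE 0.16, 95% interval -0.03 to 0.67, adjusted p = 0.159) did not pass the test. That interval leaves room for an increase of up to 0.67 on the log2 scale.

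Among the inhibitors, *Timp1* differed most. *Timp1* (chrX:20870166-20874735, + strand), a secreted inhibitor of most soluble metalloproteinases but a weak one of MT1-MMP, measured 41.2, 22.9 and 29.4 FPKM with IL-2 and 86.5, 125 and 67.2 FPKM with NKTR-214. Every NKTR-214 tumor was above every IL-2 tumor, and the means were 31.2 ± 9.26 and 92.9 ± 29.5 FPKM (SD, n = 3 each), a ratio of 2.98. The log2 fold change was 1.54 (SE 0.23, 95% interval 1.06 to 2.02, adjusted p = 9.63e-05). *Timp3* (chr10:86300372-86349506, + strand), which binds to the matrix and also inhibits ADAM and ADAMTS proteinases, measured 21.4, 14.9 and 13.1 FPKM with IL-2 and 23.8, 30.2 and 23.3 FPKM with NKTR-214. The groups were apart by a small margin, at IL-2 tumor 1. Its log2 fold change of 0.63 (SE 0.18, 95% interval 0.26 to 1.01, adjusted p = 0.0133) missed the threshold without IL-2 tumor 2 (adjusted p = 0.0840), without IL-2 tumor 3 (adjusted p = 0.0790) and with no minimum level (adjusted p = 0.0531). The exons of *Timp3* share 21.3% of their bases with *Syn3* on the opposite strand, which was listed at 0.368 to 0.558 FPKM over the 6 tumors. *Timp2* (chr11:118301069-118355740, - strand), the inhibitor that also takes part in *Mmp2* activation, was the only one of the 10 whose groups overlapped. Its levels were 48.6, 35.1 and 43.2 FPKM with IL-2 and 44.4, 53.5 and 46.4 FPKM with NKTR-214, with a log2 fold change of 0.19 (SE 0.16, 95% interval -0.15 to 0.53, adjusted p = 0.414).

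**Figure D2:**
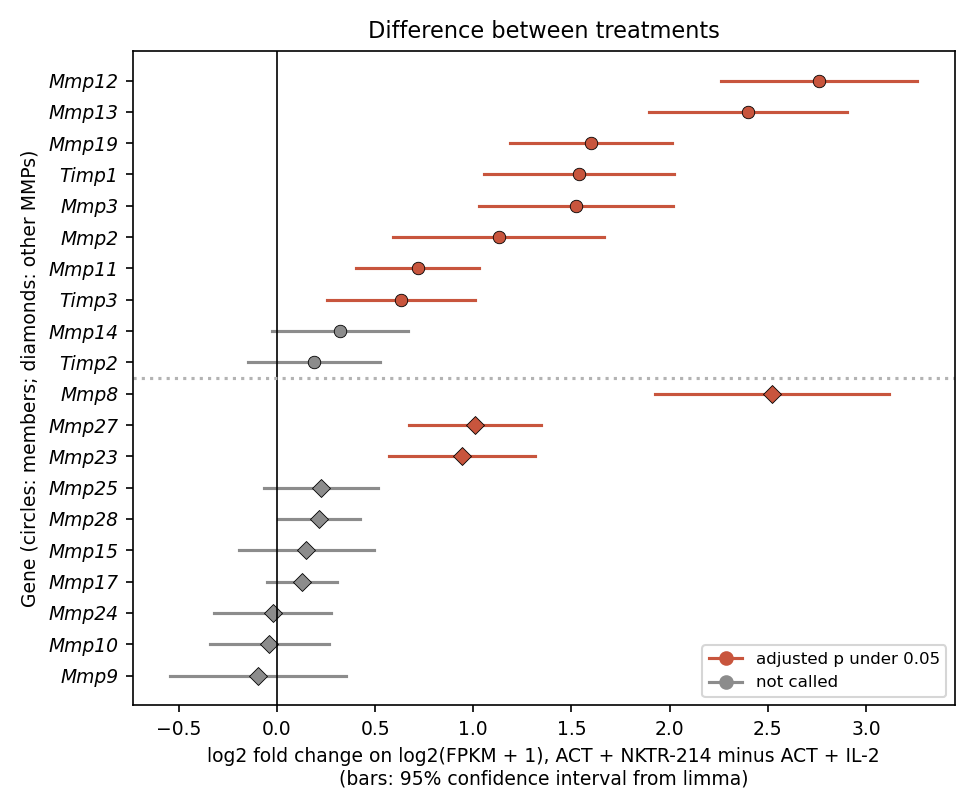
Log2 fold change on log2(FPKM + 1) of the 10 genes (circles) and of 10 other matrix metalloproteinases that were tested (diamonds), ACT + NKTR-214 minus ACT + IL-2, with 95% intervals from limma as bars and called genes in red. *Mmp12*, *Mmp8* and *Mmp13* lie above 2, and the intervals of *Mmp14* and *Timp2* include 0.

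FPKM are per length, but the order of levels between genes depends on the length used. The lengths behind the deposited values, as implied by the steps of 1 read, were 3714 bases for *Mmp12*, 3808 for *Mmp14* and 4682 for *Timp3*, against 7237, 5960 and 8144 exon bases in GENCODE vM21, while the other 7 were between 0.826 and 1.01 of theirs. On the deposited scale with IL-2 the order of mean FPKM was *Mmp14*, *Timp2*, *Timp1*, *Timp3*, *Mmp12*, *Mmp2*, *Mmp3*, *Mmp13*, *Mmp19* and *Mmp11*. In that order only *Mmp14* and *Timp2*, *Timp1* and *Timp3*, and *Mmp19* and *Mmp11* were neighbours whose 3 tumors did not overlap. With NKTR-214 *Mmp12* came first on that scale, followed by *Timp1*, *Mmp14*, *Timp2*, *Mmp2*, *Timp3*, *Mmp13*, *Mmp3*, *Mmp19* and *Mmp11*. There the neighbours without overlap were *Mmp14* and *Timp2*, *Timp2* and *Mmp2*, and *Mmp19* and *Mmp11*. Within each NKTR-214 tumor *Mmp12* was above *Mmp14*, at ratios of 1.17, 1.49 and 1.64, whereas *Mmp12* over *Timp1* was 0.943, 0.988 and 1.65. With values rescaled to the GENCODE lengths, a calculation added after the values were seen, *Timp2* came first with IL-2 and *Timp1* with NKTR-214 (mean 93.7 FPKM, against 54.1 FPKM for *Mmp12*), and *Mmp12* over *Mmp14* was 0.938, 1.19 and 1.32 in the NKTR-214 tumors. The comparison of 1 gene between groups does not involve its length, apart from the pseudocount.

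The make-up of the summed RNA differed between the groups. *Mmp14* made up 55.2%, 63.4% and 57.7% of the summed FPKM of the 7 proteinases with IL-2, and 32.2%, 26.3% and 25.6% with NKTR-214. *Mmp12* took 15.3%, 10.9% and 18.0% with IL-2 and 37.6%, 39.0% and 41.9% with NKTR-214. On the deposited scale *Mmp14* held the largest share in each IL-2 tumor and *Mmp12* in each NKTR-214 tumor. At GENCODE lengths *Mmp14* was larger than *Mmp12* in NKTR-214 tumor 1 too, and the shares of *Mmp14* (49.6% to 57.4% and 23.5% to 29.8%) and *Mmp12* (7.94% to 13.3% and 27.9% to 30.9%) were still apart between the groups. Of the summed FPKM of the 3 inhibitors, *Timp1* was 37.1%, 31.4% and 34.3% with IL-2 and 55.9%, 59.9% and 49.1% with NKTR-214. *Timp2* was the largest inhibitor share in the IL-2 tumors, at 43.7% to 50.4%, and was second to *Timp1* in the NKTR-214 tumors, at 25.6% to 33.9%. Per tumor, the proteinase sum over the inhibitor sum was 1.10, 1.10 and 1.18 with IL-2 and 1.40, 1.52 and 1.94 with NKTR-214, and at GENCODE lengths 0.879 to 0.906 and 1.05 to 1.48. *Mmp14* over *Timp2*, the pair of the *Mmp2* activation step, was 1.35 to 1.45 with IL-2 and 1.46 to 1.57 with NKTR-214 on the deposited scale. At GENCODE lengths it was 0.925 to 0.998 and 1.004 to 1.08, and the groups did not overlap on either scale. These sums and ratios are given as a description, with no test. An exact two-sided permutation test of 3 against 3 tumors can give no p below 0.1.

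**Figure D3:**
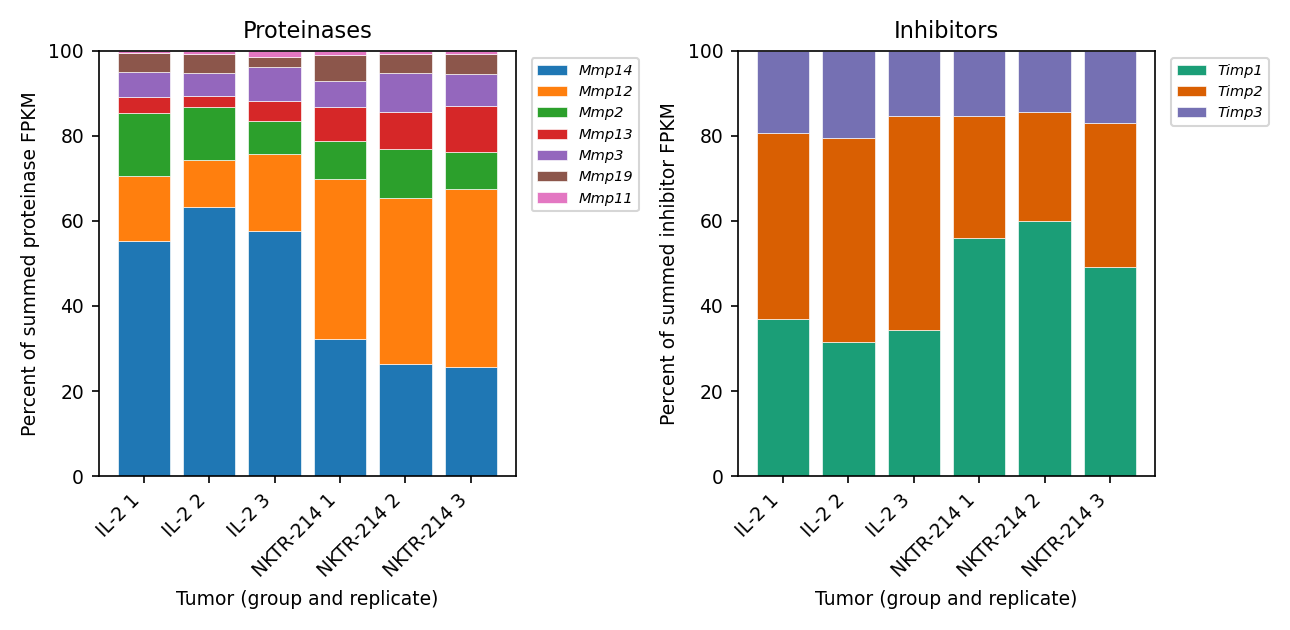
Percent of the summed FPKM of the 7 proteinases (left) and of the 3 inhibitors (right) that each gene made up in each tumor. *Mmp14* is the largest proteinase share in the 3 IL-2 tumors (55.2% to 63.4%) and *Mmp12* in the 3 NKTR-214 tumors (37.6% to 41.9%) on the deposited scale, an order that turns in NKTR-214 tumor 1 at GENCODE exon lengths.

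The deviations within groups ran in common for many of the 10 genes. NKTR-214 tumor 2 was the highest of all 6 tumors for 8 of them, the exceptions being *Mmp11* and *Mmp13*, which were highest in NKTR-214 tumor 3. IL-2 tumor 2 was the lowest for 7, and IL-2 tumor 3 for *Mmp2*, *Mmp19* and *Timp3*. The 75th percentile of FPKM over all entries was also lowest in IL-2 tumor 2, at 7.90 against 9.37 to 10.5 in the other tumors, and its part in these orders was not tested. With that tumor left out, 6 of the 10 genes were called.

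Among 119 other genes of the fixed pathway and marker lists, the likeness of pattern was measured as the root mean square difference of centred log2(FPKM + 1) over the 6 tumors. The patterns closest to *Mmp12* were those of *Adam8*, a leukocyte metalloproteinase (0.216), and *Mmp8*, the neutrophil collagenase (0.279). The same pair was closest to *Mmp13*, at 0.239 and 0.214. *Mmp19* was closest to *Tfpi2* (0.122) and *Timp1* to *S100a10* (0.1002). *Mmp2* was closest to *Fcgr1*, an Fc receptor of macrophages (0.0751), and *Csf3r*, a cytokine receptor of neutrophils (0.0970). *Timp3* lay closest to *Pdgfrb*, a receptor of mural cells and fibroblasts (0.0876), and *Myh11*, a smooth muscle myosin (0.103). *Mmp14* lay closest to *Adamts12* (0.0578), *Timp2* to *Hyal2* (0.0918), *Mmp11* to *Adamts4* (0.111) and *Mmp3* to *Ctsk* (0.248). A gene with a small difference between groups has small distances to all similar genes, so the values are not comparable between the 10.

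*Mmp13*, *Mmp12* and *Mmp3* lie in 1 cluster of 10 metalloproteinase genes on chromosome 9, which spans 427.1 kb of GRCm38 (chr9:7272514-7699585) with no other protein-coding gene between them in GENCODE vM21. From *Mmp13* on, the order is *Mmp12*, *Mmp1b*, *Mmp3*, *Mmp1a*, *Mmp10*, *Mmp8*, *Mmp27*, *Mmp20* and *Mmp7*. Of the 6 genes tested there, 5 were higher with NKTR-214, against 20.7% of all tested genes, and *Mmp10* was not called. *Mmp13*, *Mmp12* and *Mmp3*, among these 5, were already counted with the 10 genes. The remaining genes were near or at 0: *Mmp1a*, *Mmp7* and *Mmp20* were listed at 0 in every tumor, and *Mmp1b* averaged at most 0.0137 FPKM in a group.

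**Figure D4:**
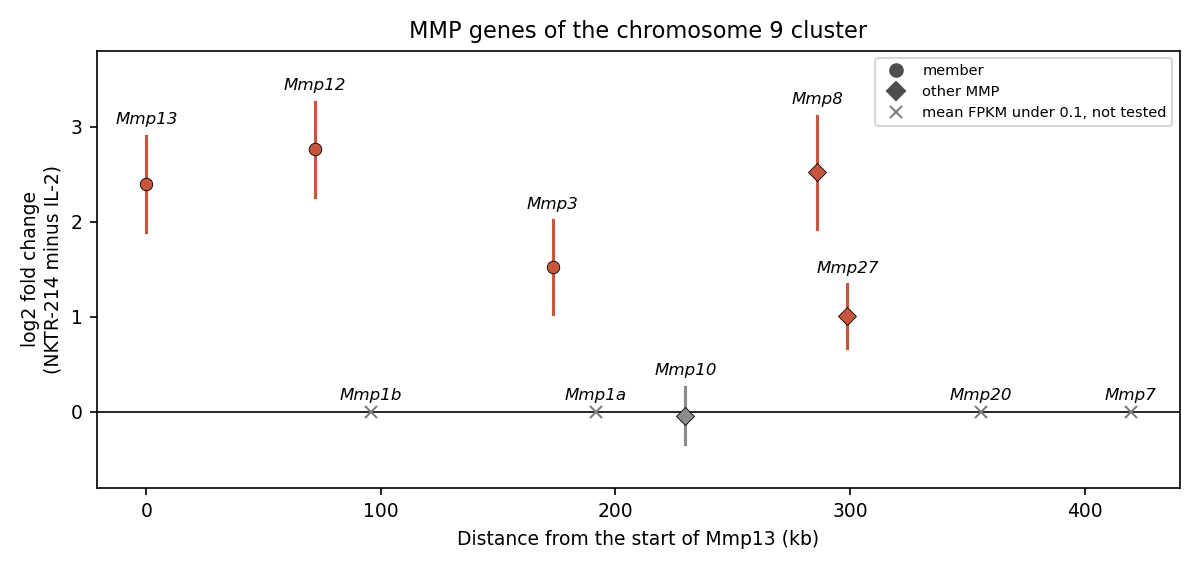
Log2 fold change (ACT + NKTR-214 minus ACT + IL-2, with 95% intervals from limma) of the chromosome 9 metalloproteinase genes against the distance of each gene from the start of *Mmp13* in kb. *Mmp13*, *Mmp12*, *Mmp3*, *Mmp8* and *Mmp27* were called, *Mmp10* lies at 0, and crosses mark the position of 4 genes under 0.1 FPKM that have no fold change.

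Promoters of this cluster are shown because *Mmp13*, *Mmp12* and *Mmp3* were all higher with NKTR-214 and because AP-1, the Fos and Jun transcription factor, is a textbook regulator of metalloproteinase genes. RefSeq promoter windows on GRCm38.p6 (250 bases before a start) matched 8 of the 10 genes with 9 windows, and *Mmp2* and *Mmp19* had none. The AP-1 motif TGANTCA, which reads the same on both strands, was present in 3 of the 9 windows. These were the windows of *Mmp13*, *Mmp3* and the second of 2 *Mmp12* starts, with the first base of the motif 35, 46 and 44 bases before the start. The motif was in 6.75% of all 32851 promoter windows and in 4.84% of the 14011 windows of tested genes. The stretches of 120 bases up to each start are printed below 5′ to 3′ on the + strand, with the motif in capitals. They cover chr9:7272394-7272513 for *Mmp13* and chr9:7445702-7445821 for *Mmp3*, both outside the gene, and chr9:7347254-7347373 for *Mmp12*, inside an intron of the gene.
Mmp13: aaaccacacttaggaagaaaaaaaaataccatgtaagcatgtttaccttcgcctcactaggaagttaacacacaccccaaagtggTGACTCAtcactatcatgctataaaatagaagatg
Mmp12: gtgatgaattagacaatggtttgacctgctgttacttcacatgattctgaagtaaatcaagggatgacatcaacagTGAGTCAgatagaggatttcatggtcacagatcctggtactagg
Mmp3: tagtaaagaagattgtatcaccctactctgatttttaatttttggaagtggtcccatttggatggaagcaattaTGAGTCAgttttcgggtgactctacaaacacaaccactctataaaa
The motif was also in a window of 5 of the 13 other metalloproteinase genes with an entry. All 5 lie in the same cluster: *Mmp10*, which was not called, and *Mmp1a*, *Mmp1b*, *Mmp7* and *Mmp20*, which were at or near 0 and not tested. The windows of *Mmp8* and *Mmp27*, the other called genes of the cluster, did not hold it. A match describes letters in a window and is not a measured binding site.

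Outside the 10 genes, the family was mostly low. Of 16 other matrix metalloproteinases in the table, 10 were tested, 3 were higher and none was lower, with a median log2 fold change of 0.18. *Mmp8* measured 1.79, 0.551 and 1.32 FPKM with IL-2 and 6.17, 16.9 and 13.9 FPKM with NKTR-214, with a log2 fold change of 2.52 (95% interval 1.92 to 3.12, adjusted p = 6.8e-06). *Mmp27* (1.01, adjusted p = 0.000169) and *Mmp23* (0.94, adjusted p = 0.000709) were the other two that were higher. *Mmp9*, gelatinase B, was not called and its groups overlapped, at 1.25 ± 0.557 and 1.13 ± 0.627 FPKM (SD, n = 3 each; log2 fold change -0.10, 95% interval -0.54 to 0.35). Those of *Mmp10*, *Mmp15*, *Mmp17*, *Mmp24*, *Mmp25* and *Mmp28* lay between -0.04 and 0.22 and were not called. *Timp4*, the fourth inhibitor of the family, was at 0.0296 to 0.119 FPKM and was not tested.

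Other genes that act with or beside the metalloproteinases were counted in lists. Of 13 other inhibitors and partners tested, 7 were higher and none was lower, with a median log2 fold change of 0.68. They included *Lcn2*, which binds gelatinase B (2.00), *Tfpi2*, a Kunitz-type proteinase inhibitor (1.48), *Furin*, a convertase that activates *Mmp11* and *Mmp14* precursors (1.20), and *Lrp1*, a receptor that clears proteinases and their inhibitors (1.08). In the plasminogen activation list, an extracellular proteinase system that can activate metalloproteinase precursors, 7 of 9 tested genes were higher, none was lower, and the median was 1.49. Among those called were the urokinase receptor *Plaur* (1.78), the proteinase inhibitor *Serpine2* (1.56) and *S100a10* (1.53), part of a plasminogen receptor.

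The ADAM list, of membrane proteinases that shed surface proteins, had 3 of 10 tested genes higher and none lower, with a median of 0.17. *Adam8* (2.49), *Adam19* (1.95) and *Adam15* (0.68) were those called. Of the secreted ADAMTS proteinases 7 of 13 tested genes were higher and 1 was lower, with a median of 0.59. *Adamts6* (1.03), *Adamts2*, which trims procollagen (0.99), and the aggrecanases *Adamts5* (0.92) and *Adamts4* (0.81) were higher. The 1 lower gene, *Adamts20*, averaged 1.10 FPKM with IL-2 and 0.349 FPKM with NKTR-214 (-0.64, adjusted p = 0.00022) and was named after its value was seen. Among 17 other matrix-degrading and matrix uptake genes 13 were higher and none was lower, with a median of 1.28, led by the cathepsins *Ctss* (2.83), *Ctsg* (2.56) and *Ctsl* (2.07) and the collagen uptake receptor *Mrc1* (2.16), which also stands among the macrophage markers. Over the 6 lists with the other metalloproteinases, 40 of 72 tested genes were higher and 1 was lower, against 20.7% and 8.28% of all tested genes. These lists too were chosen with earlier results of the data known. At an unadjusted p under 0.05 in limma, 44 of the 72 were higher and 1 was lower.

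Marker genes of several cell types that the tumors could hold differed between the groups as well. All 12 macrophage and monocyte markers were higher, and their summed FPKM ran from 280.3 to 815 with IL-2 and from 1161 to 2019 with NKTR-214. Of 11 fibroblast markers 8 were higher, with sums of 251 to 744 and 792 to 1453 FPKM, among them *Thy1* (3.16), which T cells also make. Without *Thy1*, a choice made after the values were seen, the fibroblast sums overlapped, at 240.5 to 715 FPKM with IL-2 and 631 to 1261 FPKM with NKTR-214. All 5 tested neutrophil markers were higher, with sums of 4.11 to 9.53 and 22.4 to 50.6 FPKM, while *Mpo* and *Elane* were too low to be tested. All 6 tested T cell markers were higher, with sums of 9.21 to 22.5 and 119 to 261 FPKM. In the other direction, 5 of 7 melanocyte and B16 melanoma markers were lower, with sums of 5413 to 6933 FPKM with IL-2 and 2664 to 3763 FPKM with NKTR-214. These markers were the defining ones of the labelled tissue and were abundant in all 6 tumors.

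Sums of the remaining lists overlapped between the groups. For smooth muscle and pericyte they ran from 18.3 to 51.8 and from 28.1 to 42.0 FPKM (1 of 7 higher), and for endothelium from 30.5 to 64.4 and from 45.4 to 87.4 FPKM (1 of 7 higher). Mast cell markers summed to 5.29 to 10.4 and 3.88 to 14.4 FPKM (0 of 6 called by limma, 1 of them lower at an unadjusted p under 0.05). The lower one was *Kit*, the most abundant of the 6 (means of 3.70 and 2.39 FPKM), and the other 5 had positive log2 fold changes. Adipocyte markers summed to 21.4 to 69.7 and 36.3 to 129 FPKM (2 of 5 higher). Skeletal muscle markers summed to 36.9 to 94.3 and 30.9 to 43.4 FPKM (4 of 6 lower), and those of the epidermis to at most 1.79 FPKM (0 of 3 tested genes called, 0 also unadjusted, *Krt1* at 0). The part of cell numbers in the differences of the 10 genes was not tested.

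Each of the 10 genes was also expressed as a percent of the macrophage, fibroblast and neutrophil marker sums, a calculation added after the values were seen. *C1qa*, *C1qb* and *C1qc* carried most of the macrophage sum (means of 343, 364 and 347 FPKM with NKTR-214). Their ratios of group means were 2.88 to 2.97, within 1.84 (*Adgre1*) to 19.1 (*Ly6c2*) over that list. *Col1a1*, *Col1a2* and *Col3a1* carried most of the fibroblast sum (281.5, 191 and 299 FPKM). Their ratios were 2.10 to 2.16, within 1.40 (*Dpt*) to 8.85 (*Thy1*). Against the macrophage sum *Mmp12* was 2.29% to 6.49% with IL-2 and 5.60% to 9.57% with NKTR-214, so that the groups overlapped, and those of *Mmp3*, *Mmp11*, *Mmp13*, *Mmp19* and *Timp1* overlapped too. *Mmp14* (8.28% to 20.8% and 4.13% to 5.84%), *Timp2*, *Timp3* and *Mmp2* were lower with NKTR-214 on that scale, without overlap. Against the fibroblast sum *Mmp12* (2.51% to 7.24% and 8.51% to 11.9%) and *Mmp13* (0.635% to 1.91% and 1.92% to 3.06%) were higher with NKTR-214 without overlap. On that scale *Mmp14* and *Timp2* were lower without overlap, and the groups of the other 6 genes overlapped. With *Thy1* left out of the fibroblast sum, those of *Mmp14* (9.44% to 24.2% and 6.61% to 11.1%) and *Timp2* (6.79% to 18.0% and 4.25% to 7.04%) overlapped, while *Mmp12*, *Mmp13* and *Mmp19* were higher without overlap. Against the neutrophil sum no gene was higher without overlap, *Mmp2*, *Mmp3*, *Mmp14*, *Timp1*, *Timp2* and *Timp3* were lower without overlap, and *Mmp11*, *Mmp12*, *Mmp13* and *Mmp19* overlapped. The neutrophil sum itself was 4.11 to 9.53 FPKM with IL-2 and 22.4 to 50.6 FPKM with NKTR-214. A gene that rose less than a marker sum comes out lower on its scale, for macrophages as well. The share of all tested genes that do so was not computed. The ratio of group means (NKTR-214 over IL-2) of *Mmp12* was 1.91 on the macrophage scale, 2.48 on the fibroblast scale and 1.10 on the neutrophil scale. For *Mmp13* these ratios were 1.75, 2.23 and 0.982. These percentages were not tested.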

How the data were processed

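RNA was extracted from B16-F10 tumors, 3 per group, and sequenced as 50-base single-end reads. The authors aligned reads to GRCm38 (HISAT2 2.0.4) and quantified genes with HTSeq. The deposited table holds linear FPKM, with a column for each tumor. The annotation and the strand setting are not given in the sources used here. The table lists gene symbols, which were matched exactly, and positions and overlaps were taken from GENCODE vM21. All 6 columns were used.

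Values were taken as log2(FPKM + 1), which understates fold changes of low genes. Genes with a mean of at least 0.1 FPKM were tested in R 4.3.3 by a linear model with moderated variances that follow the mean level (limma 3.58.1), and Benjamini-Hochberg adjustment over all 14172 of them, with a threshold of 0.05. The fit was tested on simulated data. Log2 fold changes are ACT + NKTR-214 minus ACT + IL-2. Tumors are described as biological replicates, so the spread between them is that between mice.

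Low FPKM values step by the worth of 1 read, and from those steps the depth was estimated at 2.09e+07 to 2.46e+07 fragments per tumor. Read numbers of a gene were accepted only within 0.03 of whole numbers, so that limit holds by construction. The largest deviation among the 10 genes was 0.0044, in *Timp3*. This estimate was used only to give reads behind a level, and no count test was run. Such reads cover counting error only.

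The 10 genes and all lists were chosen with earlier results of these data known. Genes named are the 10 members, all tested metalloproteinases, from each pathway list up to 4 called genes with the largest absolute log2 fold change, up to 2 genes per marker list, and the nearest genes by pattern out of 2 found for each member. 1 gene under this rule is not reported here. Other settings tried were leaving out single tumors, the replicate number as a block, a 0.1 pseudocount, a minimum of 1 FPKM or none, equal 75th percentiles, quantile normalization, moderation without the mean trend, and no moderation. Promoter sequences are RefSeq's on GRCm38.p6. Python 3.11.15, pandas 2.3.3 and matplotlib 3.10.9 were used for tables and figures.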

Additional observations from a re-analysis of the deposited data

How the results depend on the processing

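None of the 10 genes changed direction under the alternatives run, and 8 were called except where named here. No variance moderation gave 101 genes higher and 27 lower, 1 pathway gene higher and 0 lower, and 0 of the 10 higher by limma's unmoderated fit (6 at an unadjusted p under 0.05), with adjusted p from 0.0597 (*Mmp12*) to 0.161 (*Mmp2*) for the 8 called otherwise. It leaves 4 residual degrees of freedom per gene. The count of lower genes, 1173, was 3709 with scaling to the 75th percentile and 4549 with quantile normalization, and that of lower pathway genes, 1, was 2 and 4 with these and 0 with a minimum of 1 FPKM. With each tumor left out in turn, 2004 to 3480 genes were higher, 635 to 2003 lower, and 6 to 8 of the 10 were higher. Without IL-2 replicate 2 there were 2004 higher, 2003 lower and 6 of the 10 higher. Lower genes numbered 635 without IL-2 replicate 3 and 682 without NKTR-214 replicate 2, and 7 of the 10 were higher without IL-2 replicate 3, with no minimum and with quantile normalization. The replicate numbers mark different mice, and deviations of same-numbered tumors correlated at -0.21, -0.07 and 0.40. With the number as a replicate block, 3090 genes were higher and 1227 lower, and 8 of the 10 were higher. At 33 to 122 reads, *Mmp11* is the member that depth limits most.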
